A study of Homo sapiens with 72 samples.

Results

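Homoharringtonine at 10000 nM was compared with its vehicle, DMSO, in U2OS cells, a human line derived from an osteosarcoma. The comparison took every well labelled with that compound at that dose, 3 wells, and every DMSO well, 18 wells, so 21 of the 72 wells of the series. Compound or vehicle was on the cells for 12 h in medium with serum, and RNA of each well of a 24-well plate was poly(A)-selected and sequenced as a population. The 3 wells of homoharringtonine at 1000 nM and the 3 at 100 nM are used for the dose, and the plate or batch of a well was not used here. The wells share 1 cell line, and no label ties a well to a culture of its own, so p-values measure the spread between wells, which may be technical.

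Homoharringtonine is a plant alkaloid that binds the peptidyl transferase centre of the large ribosomal subunit and blocks the early rounds of elongation, so that ribosomes already on an mRNA run off while new ones stall near the start codon. Cells in which translation is blocked keep transcribing, while short-lived proteins are no longer replaced. The name superinduction has long been used for the rise of immediate early and cytokine mRNAs under such blocks. The mRNAs of these genes are themselves short-lived, often through AU-rich elements in the 3′ UTR.

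Depth was 36.7 mil to 56.9 mil expected counts in the treated wells and 18.4 mil to 56.4 mil in 17 DMSO wells, while DMSO replicate 10 held 0.460 mil. That well also stood apart in level: of the 203 genes named or singled out here, 62 had their highest DMSO value in it, and among the 87 of them raised by the compound there were 50 such genes. Of the 43 lowered ones, 14 had their lowest DMSO value in it. At this depth a value of a few CPM rests on a few reads, and a value of 0 says little. Replicate 10 was kept, and without it none of these 203 genes gained or lost its call and none of the 80 counts of list members below moved by more than 1.5 times. Libraries also differed in their GC slope, by how much a gene's log2 level moves for 10 points more GC in its transcript. The slope was -0.42 to -0.31 in treated wells and -0.34 to 0.18 in DMSO. Fits with this slope as covariate, and fits with only the 3 DMSO wells under -0.2 (the low-slope wells), are given beside many of the counts that change with it. A count printed without them is not thereby unchanged in these fits. Of the mesenchymal markers, VIM, FN1, SPARC and CDH2 were present in DMSO (median TPM 1868, 374, 2137 and 75.9) and COL1A2 was near 0 (0.07). The osteoblast markers SP7 and IBSP had a median of 0, against 3.81 for RUNX2 and 3.79 for ALPL. Summed mesenchymal markers were 3687 to 5138 TPM in DMSO and 1575 to 1643 TPM in treated wells, and summed osteoblast markers were 6.03 to 16.2 and 2.91 to 3.84 TPM, so for both sums the treated wells lay below every DMSO well. Singly, VIM, SPARC, CDH2, RUNX2 and ALPL lay below DMSO, while FN1, COL1A2 and BGLAP overlapped it. SP7 and IBSP reached at most 0.2 TPM in treated wells. Summed endothelial markers, of which none reached 1 TPM in the DMSO median, were 0.35 to 1.19 TPM in DMSO and 2.75 to 3.4 in treated wells through VWF and KDR. Summed epithelial markers were 9.03 to 16.8 and 13.8 to 15.9 TPM and haematopoietic ones 1.23 to 3.16 and 1.6 to 1.84. Within these overlapping sums EPCAM lay above DMSO (4.12 to 6.99 against 0 to 3.73 TPM). HBB was 0 in DMSO and 0.45 to 0.7 in treated wells, and CD34 lay below DMSO (0.86 to 1.03 against 1.23 to 2.3). The part of other cell types in the results was not tested.

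The compound changed 47.2% of the genes tested. Of 19268 genes tested, 4576 (23.7%) were raised and 4514 (23.4%) were lowered, where a raised gene has a log2(Fold Change) over 1 and a lowered gene one under -1, both with padj (edgeR's quasi-likelihood test, Benjamini-Hochberg) under 0.05. The median log2(Fold Change) was -0.04, the median absolute value 0.96, and 928 genes were raised by more than 3 while 615 were lowered by more than 3 on the log2 scale. All 3 treated wells lay above the range of the 18 DMSO wells for 5362 genes (27.8%) and below it for 3896 (20.2%). These counts are relative: poly(A) RNA per cell was not measured, and the ERCC spike-in share, 0.0225% to 0.0739% in treated and 0.0158% to 0.51% in DMSO wells, was not used for scaling. In bulk wells fewer cells of a kind and less RNA per cell cannot be told apart. Scaling to the 13 mitochondrially encoded mRNAs in place of TMM moved the median of all genes by -0.27 and gave 3714 raised and 5711 lowered genes.

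Secreted cytokines, the NF-κB loop, immediate early transcription factors, replication-dependent histones and clock genes had the highest medians among the 18 lists plotted by member, whereas HOX genes, collagens and the genes of the ATF4 programme had the lowest, and the order within either end differed in the GC fits. The lists were drawn from textbook knowledge with earlier results of these wells in view, and their counts and medians are descriptions beside those of all genes. Every count of raised or lowered list members below stands beside 23.7% raised and 23.4% lowered among all genes tested. Medians near 0 changed sign in at least 1 of the fits with another scaling, a GC term or the low-slope wells for translation factors, ribosome biogenesis, mitochondrially encoded mRNAs, proteasome subunits, chaperones, replication, mitosis, tubulins, YAP targets and hypoxia targets, and no direction is given for these lists.

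**Figure D1:**
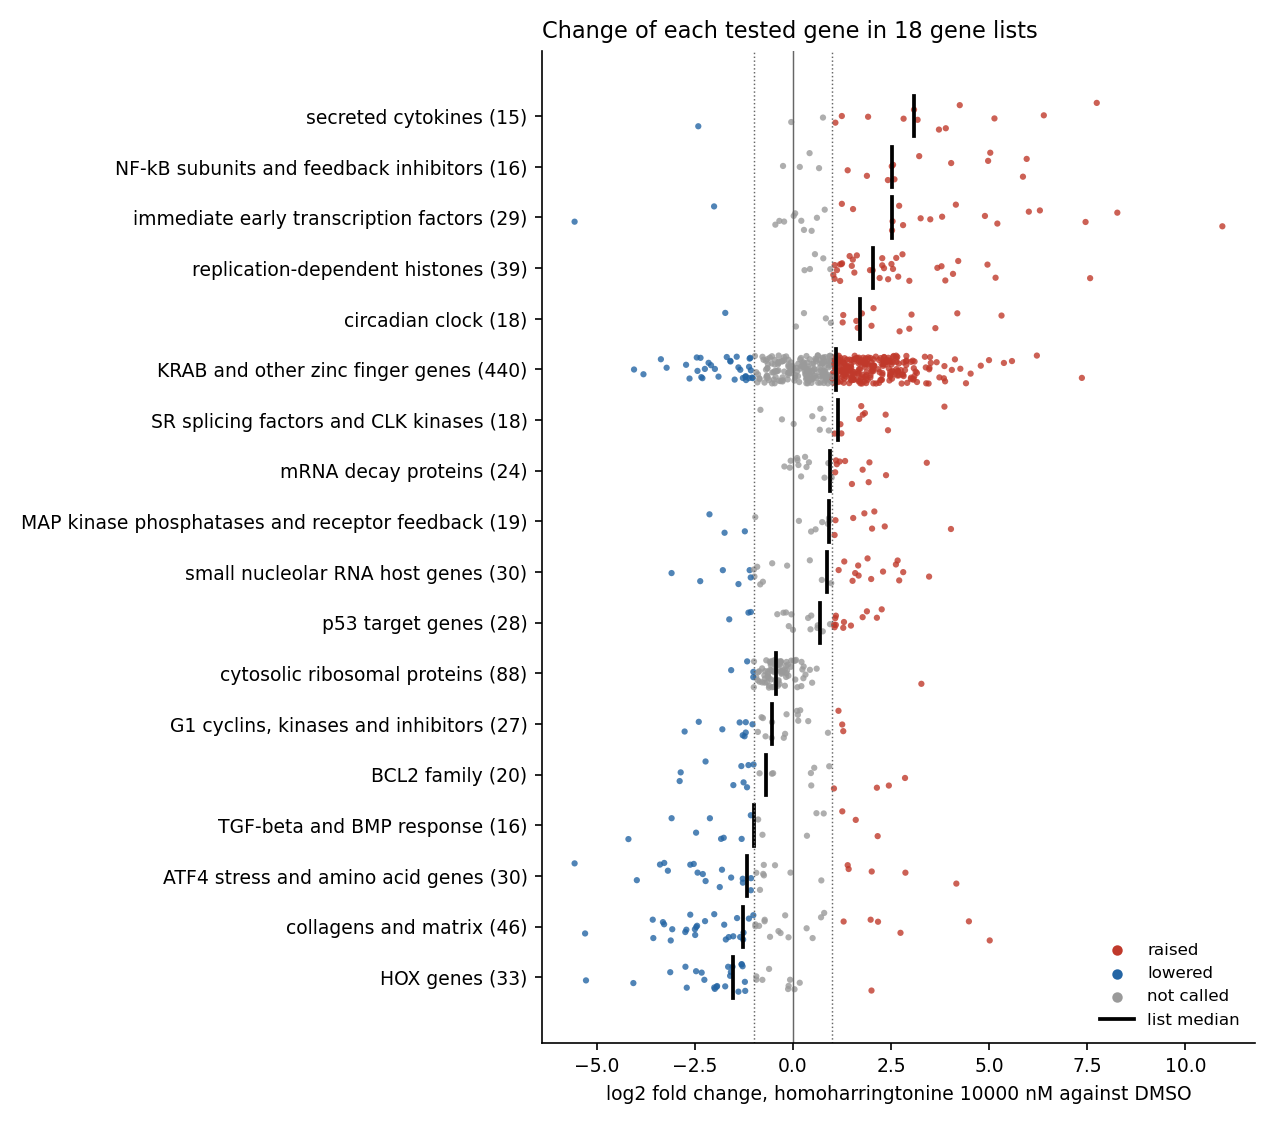
Log2(Fold Change) of each tested gene, homoharringtonine 10000 nM against DMSO, in 18 lists (number tested in brackets); red points were raised, blue lowered, grey not called, black bars mark list medians and dotted lines the fold threshold of 1. Medians ran from 3.09 for secreted cytokines to -1.54 for HOX genes, and the sign of each of the 18 medians was the same with library-size or mitochondrial scaling and in both GC fits.

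Immediate early transcription factors, the bZIP and zinc finger proteins that cells switch on within minutes of a stimulus, were mostly raised: 17 of 29 were raised and 2 lowered, against 23.7% and 23.4% of all genes, with a median log2(Fold Change) of 2.53, and the count was the same in both GC fits. Levels below are TMM-normalised CPM, for the treated replicates 1, 2 and 3 in order and for DMSO as the lowest, median and highest of 18 wells. EGR1 (ENSG00000120738, chr5:138465479-138469303, plus strand, GRCh38), a zinc finger factor of the growth response, stood at 5328, 5177 and 5029 CPM against 42.4, 67.6 and 614 (log2(Fold Change) = 6.01 ± 0.41 (SE), padj = 2.2e-12). The DMSO maximum was replicate 10, and the other 17 DMSO wells ended at 93.8. FOS (ENSG00000170345, chr14:75278826-75282230, plus strand), the AP-1 subunit, stood at 1036, 971 and 901 CPM against 7.97, 11.8 and 135 (log2(Fold Change) = 6.29 ± 0.33 (SE), padj = 1.5e-14). In both genes every treated well exceeded every DMSO well.

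EGR4, EGR2 and FOSB were 3 of the 8 largest rises of protein-coding genes whose mean of both group means was at least 10 CPM. All 3 met this floor through their treated wells, and the rule favours genes near 0 in DMSO. EGR4, an EGR paralog best known from neurons, stood at 600.4, 585 and 462 CPM against 0, 0.139 and 75.5 (log2(Fold Change) = 10.94 ± 0.66 (SE), padj = 2.2e-13). DMSO replicate 10 held the maximum of 75.5, the other DMSO wells reached 0.953 at most, and the log2(Fold Change) was 11.38 without that well. EGR2 stood at 209.9, 209.9 and 198 CPM against 0.27, 0.604 and 13.5 (log2(Fold Change) = 8.26 ± 0.26 (SE), padj = 1.8e-18). FOSB reached 259, 253 and 214 CPM, with 0.461, 1.38 and 36.8 in DMSO (log2(Fold Change) = 7.46 ± 0.30 (SE), padj = 1.4e-16). ATF3, the stress-induced bZIP repressor, reached 819, 826 and 708 CPM against 16.6, 20.6 and 114 (log2(Fold Change) = 5.21 ± 0.22 (SE), padj = 2.3e-16). The treated wells were separate from DMSO for each of these genes, also where replicate 10 was the highest DMSO well. JUN (log2(Fold Change) = 2.81 ± 0.15 (SE), padj = 2.4e-14) and IER2 (log2(Fold Change) = 3.8 ± 0.17 (SE), padj = 7.2e-16) were raised too. JUNB (log2(Fold Change) = 3.5 ± 0.16 (SE), padj = 9.6e-16) and the orphan nuclear receptor NR4A3 (log2(Fold Change) = 4.15 ± 0.11 (SE), padj = 1.6e-19), both picked out after their values were seen, were raised as well.

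The lowered members were JDP2 and MYC. JDP2 (ENSG00000140044, chr14:75427716-75474111, plus strand), a bZIP partner that represses AP-1 sites, lies downstream of FOS on the same strand and fell to 1.36, 1.29 and 1.16 CPM from 44.5, 58.7 and 91 (log2(Fold Change) = -5.56 ± 0.26 (SE), padj = 2.0e-15). MYC, the growth-promoting bHLH factor, was at 35.9, 35.7 and 34 CPM against 123, 138 and 173 (log2(Fold Change) = -2.01 ± 0.12 (SE), padj = 1.5e-13), below every DMSO well; it was singled out after its values were seen. At 100 nM the mean MYC level was 562 ± 83.4 CPM (SD, n = 3), above the DMSO maximum, and the 3 wells at 1000 nM held 149, 98.9 and 104 CPM, so the mean at 10000 nM was the lowest of the 3 doses. As a whole the list took 1.28% ± 0.0967 (SD, n = 3) of counts in treated wells and 0.148% ± 0.0421 (n = 18) in DMSO, without overlap.

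**Figure D2:**
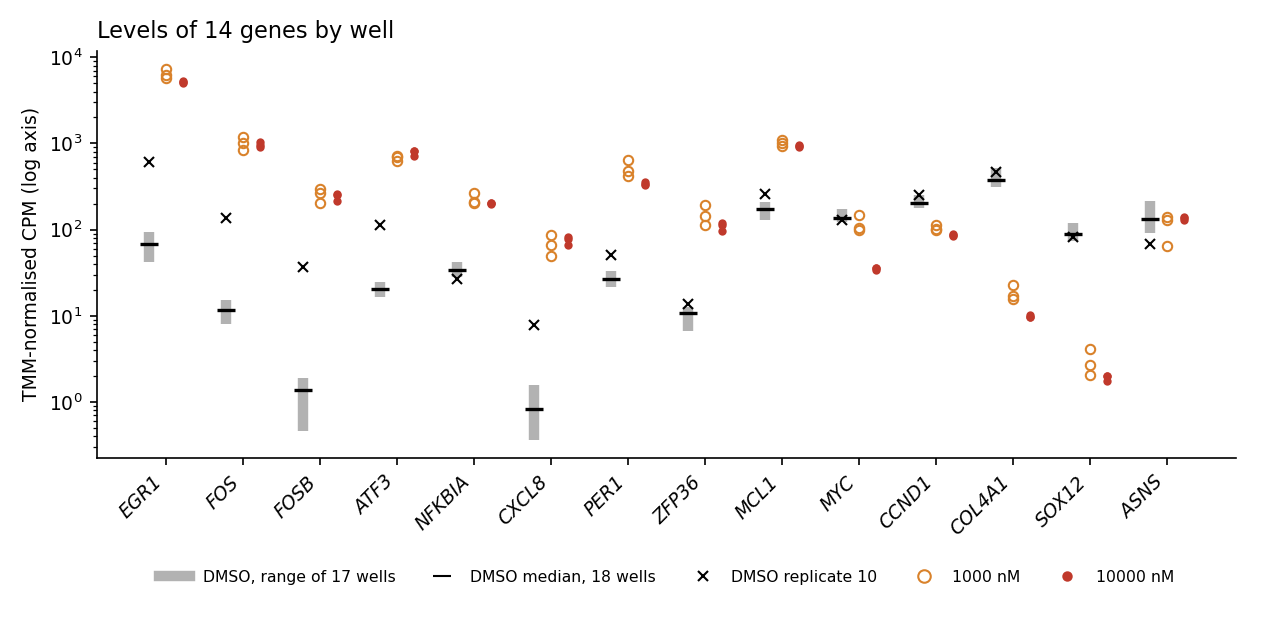
TMM-normalised CPM (log axis) of 14 genes: grey bars span 17 DMSO wells without replicate 10, black ticks the median of 18, crosses DMSO replicate 10, open circles the 3 wells at 1000 nM and filled circles the 3 wells at 10000 nM. For EGR1 the cross sits at 614 CPM, between the other DMSO wells (42.4 to 93.8) and the treated wells (5029 to 5328), and the treated wells of MYC lie below both DMSO and 1000 nM.

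The EGR1 promoter is printed for its CArG boxes, the element that serum response factor is known to bind. Over the 250 bases before the RefSeq start, on either strand, the CArG box was in 3 of 23 members of this list with a promoter sequence (EGR1, EGR2 and SRF), 13%, against 1.54% of 11856 tested protein-coding genes and 1.37% of the raised ones, and 1.44% of all 27305 promoters in the RefSeq table. The cyclic AMP element TGACGTCA was in 2 of the 23, JUND and MAFF, against 3.26% of tested and 3.98% of raised protein-coding genes and 2.03% of all promoters. The stretch below is chr5:138465334-138465445, plus strand (GRCh38.p14, 5′ to 3′), with 2 CArG boxes in capitals that begin 105 and 83 bases before the start.
EGR1: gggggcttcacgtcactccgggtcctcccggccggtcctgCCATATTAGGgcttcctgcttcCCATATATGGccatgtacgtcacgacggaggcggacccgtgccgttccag

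In the NF-κB pathway dimers of REL proteins are held in the cytoplasm by IκB inhibitors until these are degraded, and they then switch on the genes of their own inhibitors. Of 16 members tested, 12 were raised and none lowered, with a median log2(Fold Change) of 2.53; 12 were raised with the GC covariate and 11 against the low-slope wells. Among subunits, RELB stood at 503, 509 and 476 CPM against 12.4, 15.4 and 73.6 (log2(Fold Change) = 4.97 ± 0.18 (SE), padj = 1.9e-17) and NFKB1 at 316, 339 and 322 CPM against 49.4, 56.4 and 87.1 (log2(Fold Change) = 2.52 ± 0.08 (SE), padj = 4.7e-18). RELB and NFKB1 were singled out after their values were seen. RELA, the p65 transactivating subunit, stood at 207, 217 and 198 CPM against 100.0, 132 and 159, above every DMSO well but under the fold threshold (log2(Fold Change) = 0.67 ± 0.11 (SE), padj = 4.5e-06).

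Feedback inhibitors were raised as well. NFKBIA, the IκBα inhibitor, stood at 202, 202 and 198 CPM against 27.1, 33.8 and 41.8 (log2(Fold Change) = 2.55 ± 0.09 (SE), padj = 6.2e-18), and DMSO replicate 10 was the lowest DMSO well here. TNFAIP3, the A20 ubiquitin-editing enzyme that ends the signal, stood at 387, 402 and 373 CPM against 4.97, 6.24 and 44.5 (log2(Fold Change) = 5.96 ± 0.19 (SE), padj = 2.6e-18). TRAF1 (log2(Fold Change) = 5.86 ± 0.18 (SE), padj = 2.4e-18) and BIRC3 (log2(Fold Change) = 5.03 ± 0.32 (SE), padj = 9.1e-13), adaptor and ubiquitin ligase of the receptor complex, were singled out after their values were seen. Every treated well exceeded the DMSO range for 13 of the 16 members, against 27.8% of all genes. DMSO replicate 10 was the highest DMSO well for TNFAIP3, TRAF1 and BIRC3, at 44.5, 25.2 and 29 CPM.

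Cytokine and growth factor mRNAs had a median of 3.09, with 12 of 15 raised and 1 lowered, and medians of 2.45 with the GC covariate and 2.59 against the low-slope wells. CXCL8, the neutrophil chemokine interleukin 8, stood at 65.7, 78.2 and 81.5 CPM against 0.368, 0.828 and 7.74 (log2(Fold Change) = 6.39 ± 0.23 (SE), padj = 1.6e-17). HBEGF, a membrane-shed EGF receptor ligand, stood at 84.2, 82.1 and 70.9 CPM against 17.4, 36.6 and 48.4 (log2(Fold Change) = 1.08 ± 0.14 (SE), padj = 1.9e-07), and with mitochondrial scaling its log2(Fold Change) was 0.81, under the threshold. LIF, a gp130 ligand, was not called, with 23.3, 21.9 and 25.2 CPM inside the DMSO range of 17.8 to 37.6 (log2(Fold Change) = -0.04, padj = 0.82), while its mean at 100 nM was 233 ± 31 CPM (SD, n = 3). The lowered member, CCL2, a monocyte chemokine, was at 0.202, 0.188 and 0.321 CPM against 0, 1.24 and 2.05 (log2(Fold Change) = -2.41 ± 0.31 (SE), padj = 1.9e-07) and overlapped DMSO only through replicate 10, at 0. IL6, an inflammatory cytokine, stayed low, at 3.38, 3.84 and 2.79 CPM against 0, 0.23 and 0.768 (log2(Fold Change) = 3.72 ± 0.30 (SE), padj = 6.6e-11). CCL2 and IL6 were singled out after their values were seen.

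Elements of promoters and 3′ UTRs were read for these lists. The κB consensus was in the 250 bases before the start of 10 of 14 NF-κB list members with a promoter sequence, 71.4%, and of 6 of 15 cytokine genes, 40%, against 15.8% of tested and 15.1% of raised protein-coding genes and 11.8% of all promoters. It was also in 6 of 23 immediate early factors with a promoter sequence, 26.1%. The NFKBIA stretch below lies at chr14:35404781-35404870, minus strand (GRCh38.p14), with the κB match in capitals, 81 bases before the start. In annotated 3′ UTRs, the AU-rich nonamer TTATTTATT was in 8 of 15 tested cytokine genes, 53.3%, 7 of 29 immediate early factors, 24.1%, and 4 of 16 NF-κB members, 25%, against 9.44% of all tested protein-coding genes, 11.6% of raised and 8.48% of lowered ones. It was also in 10 of 28 p53 targets, 35.7%, and in neither IER3 nor MCL1. For FOS, CXCL8 and TNFAIP3, 29 bases of the 3′ UTR around the nonamer follow, in capitals, at chr14:75282060-75282088, plus strand, chr4:73742664-73742692, plus strand, and chr6:137882298-137882326, plus strand (GRCh38). Whether these matches act was not tested.
NFKBIA promoter: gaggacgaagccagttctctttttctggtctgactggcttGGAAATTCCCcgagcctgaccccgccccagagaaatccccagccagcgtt
FOS 3′ UTR: tgtttttaatTTATTTATTaagatggatt
CXCL8 3′ UTR: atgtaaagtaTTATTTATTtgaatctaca
TNFAIP3 3′ UTR: gtaattcactTTATTTATTttattacaaa

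Of 19 MAP kinase phosphatases and receptor feedback genes, 8 were raised and 3 lowered (median 0.92), and 6 and 3 in each GC fit. DUSP1, which dephosphorylates p38 and JNK, stood at 96.5, 91.1 and 79.7 CPM against 13.5, 22 and 26.6 (log2(Fold Change) = 2.02 ± 0.09 (SE), padj = 1.4e-15). SPRY4, an inhibitor of receptor tyrosine kinase signalling, stood at 12.4, 12.8 and 11.5 CPM against 1.33, 2.04 and 5.81 (log2(Fold Change) = 2.34 ± 0.23 (SE), padj = 2.1e-09). ERRFI1 was raised (log2(Fold Change) = 1.08 ± 0.20 (SE), padj = 3.5e-05), but its log2(Fold Change) was 0.42 with the GC covariate, 0.76 against the low-slope wells and 0.87 with mitochondrial scaling. DUSP2, a nuclear ERK phosphatase singled out after its values were seen, stood at 209, 191 and 154 CPM against 8.29, 11.6 and 23.2 (log2(Fold Change) = 4.03 ± 0.11 (SE), padj = 3.4e-19). DUSP6, the cytoplasmic ERK phosphatase, was hardly expressed, at 0.891, 0.697 and 0.679 CPM against a DMSO maximum of 0.717, and was not called.

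Among 24 mRNA decay proteins 11 were raised and none lowered (median 0.94), with 8 and 9 raised in the GC fits and 7 with mitochondrial scaling. ZFP36, the tristetraprolin protein that binds AU-rich elements, stood at 121, 114 and 97.1 CPM against 6.64, 10.9 and 13.5 (log2(Fold Change) = 3.41 ± 0.11 (SE), padj = 5.8e-18). BTG2, an adaptor of the CCR4-NOT deadenylase, stood at 66.1, 62.8 and 63.3 CPM against 15.6, 19.3 and 23.2 (log2(Fold Change) = 1.78 ± 0.09 (SE), padj = 5.3e-15). Both were separate from DMSO, whereas ZFP36L1, a paralog of ZFP36, overlapped it at 198, 186 and 175 CPM against 120.4, 152 and 199 (log2(Fold Change) = 0.31 ± 0.12 (SE), padj = 0.019) and had a mean of 997 ± 117 CPM at 100 nM (SD, n = 3). XRN1, the cytoplasmic 5′-to-3′ exonuclease, was singled out after its values were seen (log2(Fold Change) = 2.37 ± 0.21 (SE), padj = 4.6e-10). Of 15 nonsense-mediated decay factors, 2 were raised and none lowered (median 0.6), and 4 and 3 were raised in the GC fits. UPF1, the central helicase, was not called (log2(Fold Change) = -0.05 ± 0.10 (SE), padj = 0.67). Its kinase SMG1 lay above DMSO (log2(Fold Change) = 0.95 ± 0.19 (SE), padj = 1.1e-04) and SMG5, an adaptor of the later steps, below it (log2(Fold Change) = -0.84 ± 0.12 (SE), padj = 6.9e-07), both under the fold threshold.

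Replication-dependent histone genes were raised in 34 of 39 tested, none was lowered, and the median log2(Fold Change) was 2.03; 35 and 37 were raised in the GC fits and 26 with mitochondrial scaling. A further 26 of 65 listed genes were too low to be tested. These mRNAs end in a stem-loop rather than a poly(A) tail, so poly(A) selection samples a fraction of them, and near-identical copies share reads that RSEM divides among them. H2BC4 stood at 49.3, 56.5 and 47.3 CPM against 6.93, 8.65 and 29 (log2(Fold Change) = 2.51 ± 0.15 (SE), padj = 3.3e-13). H1-2, a linker histone, stood at 268, 295 and 219.6 CPM against 81.1, 122 and 176 (log2(Fold Change) = 1.12 ± 0.15 (SE), padj = 3.5e-07), with 0.79 under mitochondrial scaling and 0.9 against DMSO replicates 1 to 3 only. H4C3 was low, at 1.13, 1.23 and 1.14 CPM against 0, 0.268 and 0.768 (log2(Fold Change) = 2.03 ± 0.26 (SE), padj = 1.5e-07). H2AC6, singled out after its values were seen, stood at 359.5, 331 and 415 CPM against 21.7, 28.3 and 67.7 (log2(Fold Change) = 3.68 ± 0.12 (SE), padj = 6.5e-18). By locus, 26 of 29 tested genes on chromosome 6 and 8 of 10 elsewhere were raised. Histone genes together took 0.203% ± 0.012 (SD, n = 3) of counts in treated wells and 0.0422% ± 0.00692 (n = 18) in DMSO, without overlap, with 0.141% at 1000 nM and 0.0863% at 100 nM.

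Small nucleolar RNA host genes carry snoRNAs in their introns, and many of their spliced RNAs are known targets of translation-coupled decay. Of 30 tested, 14 were raised and 6 lowered (median 0.86), with 10 lowered under mitochondrial scaling. The hosts chosen as reference members were all raised, but they were chosen with earlier results of these data known and do not stand for the list. ZFAS1 stood at 366, 384 and 296 CPM against 35.5, 55.5 and 66.2 (log2(Fold Change) = 2.71 ± 0.11 (SE), padj = 1.2e-16). SNHG12 stood at 109, 107 and 94.7 CPM against 6.81, 9.24 and 15.5 (log2(Fold Change) = 3.47 ± 0.15 (SE), padj = 3.7e-16). GAS5 (log2(Fold Change) = 2.3 ± 0.18 (SE), padj = 4.6e-11) and SNHG1 (log2(Fold Change) = 2.62 ± 0.25 (SE), padj = 8.8e-10) were likewise separate from DMSO. The class took 0.226% ± 0.0215 (SD, n = 3) of counts against 0.102% ± 0.00899 (n = 18) in DMSO, without overlap, with 0.171% at 1000 nM and 0.154% at 100 nM. The lowered hosts, named after their values were seen, included SNHG26 (-3.09), SNHG18 (-2.36) and SNHG10 (-1.79, log2(Fold Change)).

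**Figure D3:**
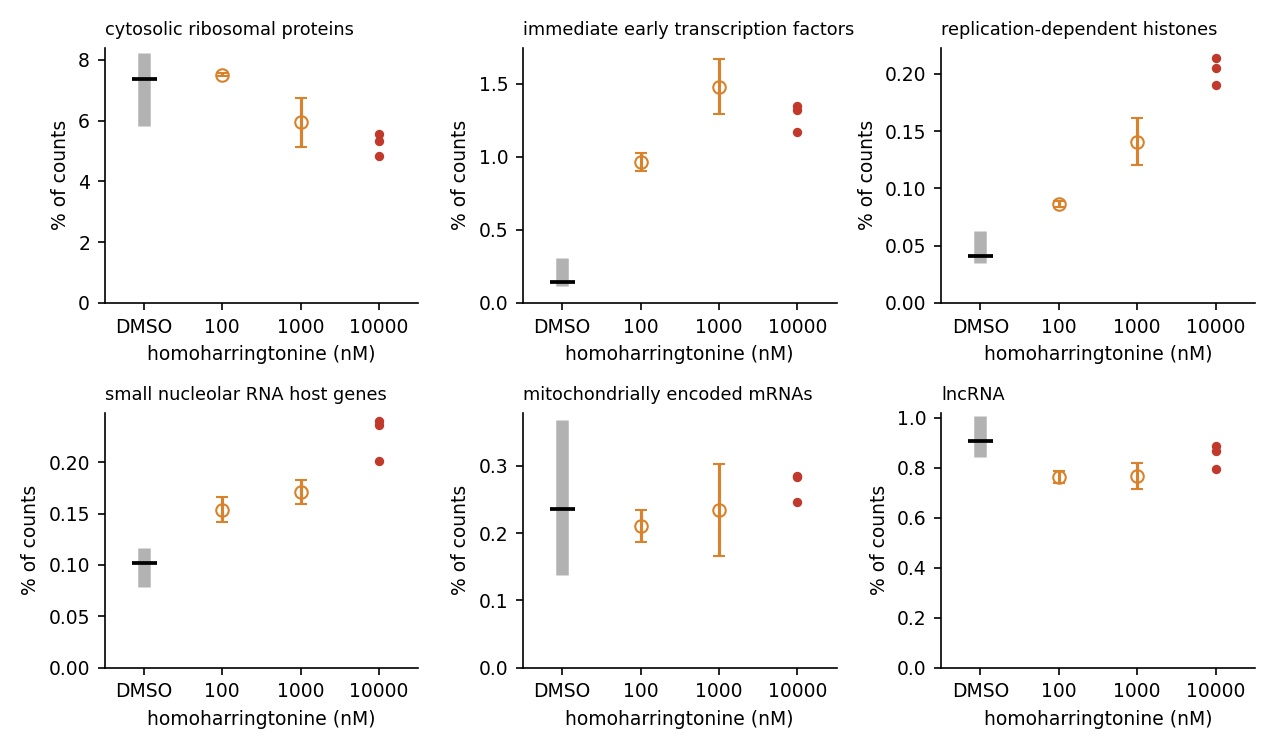
Share of expected counts (%) taken by 6 gene classes in DMSO (grey bar, range of 18 wells; tick, median), at 100 and 1000 nM (open circles, mean ± SD of 3 wells) and at 10000 nM (filled circles, 3 wells). Histone and host gene shares lie above the DMSO bar at every dose, and the mitochondrial share lies inside it. The ribosomal protein share lies below the bar in all 3 wells at 10000 nM. At 1000 nM its mean (5.94% ± 0.814) lies just above the DMSO minimum of 5.83%, and its error bar reaches below that.

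Of 88 cytosolic ribosomal protein genes 1 was raised and 4 were lowered, with a median of -0.42, and 23 of the 88 had all treated wells below the DMSO range (against 20.2% of all genes) and 1 above it. With mitochondrial scaling 18 were lowered. Their summed share was 5.24% ± 0.377 (SD, n = 3) of counts against 7.23% ± 0.711 (n = 18), with treated wells at 5.33%, 5.56% and 4.82% and DMSO at 5.83%, 7.36% and 8.22% (lowest, median, highest), without overlap, although 1 treated well lay inside the DMSO range as a share of TPM. RPLP0, a stalk protein, stood at 2042, 2037 and 1949.8 CPM against 2354, 3137 and 3645 (log2(Fold Change) = -0.62 ± 0.12 (SE), padj = 5.3e-05), below DMSO but under the fold threshold. RPL3 (log2(Fold Change) = 0.02 ± 0.10 (SE), padj = 0.88) and RPS6 (log2(Fold Change) = -0.15 ± 0.15 (SE), padj = 0.38) overlapped DMSO. RPL29 was the most lowered member (log2(Fold Change) = -1.57 ± 0.15 (SE), padj = 1.4e-09) and RPL3L, a muscle paralog of RPL3 with a treated mean of 2.57 CPM, the raised one (log2(Fold Change) = 3.27 ± 0.36 (SE), padj = 1.4e-08); both were singled out after their values were seen.

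Of 44 translation factors 7 were raised and 4 lowered (median -0.02), but 5 and 8 with the GC covariate and 5 and 5 against the low-slope wells. EIF4A2, an RNA helicase of the cap complex and itself a snoRNA host, stood at 1225, 1186 and 1354 CPM against 67.7, 106 and 194 (log2(Fold Change) = 3.51 ± 0.19 (SE), padj = 3.1e-14), whereas its paralog EIF4A1 overlapped DMSO at 863, 888 and 829 CPM (log2(Fold Change) = -0.19 ± 0.12 (SE), padj = 0.15). EIF4EBP1, the repressor of EIF4E, fell to 16.8, 17.9 and 14.7 CPM from 73.9, 123 and 155 (log2(Fold Change) = -2.84 ± 0.19 (SE), padj = 1.4e-12); it and EIF4A2 were singled out after their values were seen. EIF5, which triggers GTP hydrolysis at the start codon, was raised (log2(Fold Change) = 1.42 ± 0.21 (SE), padj = 2.1e-06) but held 0.57 with the GC covariate and 0.86 against the low-slope wells. EIF4E, the cap-binding protein (log2(Fold Change) = 0.49 ± 0.21 (SE), padj = 0.04), and EEF2, the translocase (log2(Fold Change) = 0.14 ± 0.10 (SE), padj = 0.19), were not called. Of 57 ribosome biogenesis genes, 13 were raised, 22.8% against 23.7% of all genes, and 5 were lowered. The numbers were 6 and 5 under the GC covariate, and the median of 0.24 fell to -0.02 with mitochondrial scaling. RRN3, the initiation factor of RNA polymerase I, stood at 198, 190.4 and 228 CPM against 34.6, 47.6 and 65.1 (log2(Fold Change) = 2.11 ± 0.15 (SE), padj = 3.6e-12) and NOP56, a box C/D snoRNP protein and snoRNA host, at 563, 577 and 535 CPM against 182, 237 and 331 (log2(Fold Change) = 1.16 ± 0.11 (SE), padj = 2.5e-09), the latter with 0.86 under mitochondrial scaling and 0.89 against DMSO replicates 1 to 3 only. NPM1 (log2(Fold Change) = 0.15 ± 0.18 (SE), padj = 0.45) and NCL (log2(Fold Change) = -0.37 ± 0.10 (SE), padj = 0.0019) were not called.

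Few mitochondrial and aminoacylation genes were called. Of 79 mitochondrial ribosomal protein genes 3 were raised and 13 lowered, with 4 and 7 under the GC covariate and 4 and 5 against the low-slope wells; MRPS12 was lowered (log2(Fold Change) = -1.06 ± 0.15 (SE), padj = 5.7e-07), with -0.71 and -0.77 in these fits, and MRPL12 lay below DMSO under the fold threshold (log2(Fold Change) = -0.86 ± 0.14 (SE), padj = 9.4e-06). Of 79 nuclear genes of oxidative phosphorylation 1 was raised and 2 lowered (median -0.24). NDUFA4 (0.21), COX4I1 of cytochrome c oxidase (-0.58) and ATP5F1B of ATP synthase (0.1, log2(Fold Change)) were not called. None of the 13 mitochondrially encoded mRNAs was called (median 0.16), although 2 were lowered in each GC fit; MT-CO1 stood at 759, 876 and 883 CPM against 463, 768 and 1072, and MT-ND4 (0.41) and MT-CYB (0.15, log2(Fold Change)) overlapped DMSO too. Their summed share was 0.271% ± 0.0217 (SD, n = 3) against 0.243% ± 0.0579 (n = 18), inside the DMSO range. Of 20 cytosolic aminoacyl-tRNA synthetases 1 was raised and 2 lowered (median -0.23), with none and 4 under the GC covariate. GARS1 (log2(Fold Change) = -0.17 ± 0.15 (SE), padj = 0.29) and WARS1 (log2(Fold Change) = -0.8 ± 0.08 (SE), padj = 5.8e-09) were not called.

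The ATF4 programme, in which stress kinases raise translation of the ATF4 factor and so the genes for amino acid import and synthesis, held members on both sides. Of 30 genes 5 were raised and 17 lowered (median -1.17), and 16 were lowered in each GC fit. ATF4 itself stood at 1811, 1861 and 1647 CPM against 492, 682 and 789.8 (log2(Fold Change) = 1.42 ± 0.10 (SE), padj = 3.0e-12). DDIT3, the CHOP factor, stood at 74, 73.7 and 69.5 CPM against 7.69, 9.8 and 21.3 (log2(Fold Change) = 2.87 ± 0.11 (SE), padj = 8.3e-17). PPP1R15A, the GADD34 phosphatase subunit that reverses eIF2α phosphorylation, was singled out after its values were seen and stood at 1396, 1372 and 1362 CPM against 52.3, 76 and 263 (log2(Fold Change) = 4.16 ± 0.21 (SE), padj = 1.0e-14). CHAC1, a glutathione-degrading enzyme, fell to 4.33, 4.32 and 3.25 CPM from 15.5, 40.5 and 47.4 (log2(Fold Change) = -3.28 ± 0.20 (SE), padj = 3.5e-13). TRIB3, a pseudokinase that restrains ATF4, fell to 13.7, 13.5 and 13.2 CPM from 64, 76.3 and 91.1 (log2(Fold Change) = -2.53 ± 0.12 (SE), padj = 3.9e-15). SLC7A11, the cystine transporter (log2(Fold Change) = -3.39 ± 0.26 (SE), padj = 2.2e-11), and PSAT1 of serine synthesis (log2(Fold Change) = -2.61 ± 0.10 (SE), padj = 4.8e-17), chosen after their values were seen, were also lowered, and no treated well of these 4 genes reached the DMSO range. ASNS, asparagine synthetase, overlapped DMSO at 138, 130.3 and 140.4 CPM against 67.7, 134 and 215 (log2(Fold Change) = -0.06 ± 0.24 (SE), padj = 0.82).

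Of 24 cytosolic chaperones and heat shock factors 3 were raised and 5 lowered (median 0.01). HSPA8, the constitutive HSP70, fell to 773, 803 and 822 CPM from 1233, 2369 and 3155 (log2(Fold Change) = -1.48 ± 0.26 (SE), padj = 2.0e-05). HSPA1A, whose reads are shared with HSPA1B, fell to 132, 131 and 125 CPM from 456, 562 and 761 (log2(Fold Change) = -2.17 ± 0.16 (SE), padj = 1.8e-11). HSF1, the heat shock factor, was singled out after its values were seen (log2(Fold Change) = -1.62 ± 0.12 (SE), padj = 1.5e-11). DNAJB1, an HSP40 cochaperone, lay above DMSO without passing the fold threshold (log2(Fold Change) = 0.79 ± 0.07 (SE), padj = 4.8e-10). Of 22 genes of endoplasmic reticulum folding and the unfolded protein response 3 were raised and 5 lowered (median -0.38), with 1 and 7 under the GC covariate. HSPA5, the lumenal chaperone BiP, fell to 279.5, 282 and 279 CPM from 617, 898 and 1195 (log2(Fold Change) = -1.71 ± 0.17 (SE), padj = 4.3e-09). ERN1, the sensor IRE1, singled out after its values were seen, stood at 415, 409.8 and 377 CPM against 24.2, 26.9 and 44.5 (log2(Fold Change) = 3.9 ± 0.07 (SE), padj = 6.3e-22). DNAJB9 was raised (log2(Fold Change) = 1.24 ± 0.19 (SE), padj = 2.7e-06), with 0.64 and 0.63 in the GC fits, and XBP1 (log2(Fold Change) = -0.07 ± 0.11 (SE), padj = 0.56) and HERPUD1 (log2(Fold Change) = -0.31 ± 0.10 (SE), padj = 0.0067) were not called. Of 47 proteasome subunits 4 were raised and 3 lowered (median 0.06), with 1 and 2 under the GC covariate. PSMA1 (log2(Fold Change) = 0.61 ± 0.21 (SE), padj = 0.012) and PSMD1 (log2(Fold Change) = 0.73 ± 0.16 (SE), padj = 2.8e-04) were not called. Among the lowered was PSMB5, a catalytic subunit, at 62.3, 59.6 and 60.9 CPM against 152, 198 and 234 (log2(Fold Change) = -1.66 ± 0.12 (SE), padj = 4.5e-12).

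Of 18 SR proteins and their CLK kinases 10 were raised and none lowered (median 1.14); 11 and 10 were raised in the GC fits and 7 with mitochondrial scaling, which also gave 1 lowered. These genes make alternative transcripts with poison exons, which are known targets of nonsense-mediated decay. TRA2A, a splicing activator, stood at 239.7, 256 and 259 CPM against 40.7, 48.5 and 57.9 (log2(Fold Change) = 2.36 ± 0.08 (SE), padj = 8.6e-18). SRSF6 stood at 558, 561 and 561 CPM against 139.5, 163 and 172 (log2(Fold Change) = 1.83 ± 0.07 (SE), padj = 1.9e-17). SRSF3 was at 680.2, 652 and 695 CPM against 263, 288 and 343 (log2(Fold Change) = 1.21 ± 0.06 (SE), padj = 2.6e-14), and held 0.93 under mitochondrial scaling. CLK1 (log2(Fold Change) = 2.42 ± 0.23 (SE), padj = 8.8e-10) and CLK4 (log2(Fold Change) = 3.86 ± 0.19 (SE), padj = 4.6e-15, singled out after its values were seen) phosphorylate SR proteins. Treated wells exceeded the DMSO range for 15 of the 18 genes, against 27.8% of all genes. The files give 1 value per gene, so isoforms were not compared.

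Of 19 genes of RNA polymerase II elongation control 9 were raised and none lowered (median 0.52), with 6 raised in each GC fit. POLR2A, the largest subunit of the polymerase, stood at 662, 693 and 714 CPM against 238, 295 and 362 (log2(Fold Change) = 1.24 ± 0.10 (SE), padj = 2.2e-11), with 0.95 under mitochondrial scaling. BRD2, an acetyl-lysine reader, stood at 883, 882 and 856 CPM against 281, 317 and 350.4 (log2(Fold Change) = 1.47 ± 0.06 (SE), padj = 3.8e-16). CCNT1, the cyclin of the elongation kinase P-TEFb, was raised (log2(Fold Change) = 1.52 ± 0.21 (SE), padj = 7.8e-07) with 0.71 and 0.91 in the GC fits, and its paralog CCNT2, chosen after its values were seen, was raised too (log2(Fold Change) = 2.76 ± 0.15 (SE), padj = 6.5e-14). HEXIM1, the inhibitor of that kinase, was not called (log2(Fold Change) = 0.00 ± 0.09 (SE), padj = 0.99).

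Of 20 BCL2 family genes 4 were raised and 9 lowered (median -0.69), with 7 lowered in each GC fit. MCL1, the short-lived antiapoptotic member, stood at 944, 907 and 948 CPM against 129, 174 and 257 (log2(Fold Change) = 2.44 ± 0.12 (SE), padj = 3.0e-15). BCL2L1, which encodes BCL-XL, fell to 52, 53 and 50.7 CPM from 199, 241 and 291 (log2(Fold Change) = -2.23 ± 0.10 (SE), padj = 1.6e-15). PMAIP1, the NOXA protein that opposes MCL1, stood at 114, 113 and 126 CPM against 20.4, 26.3 and 60.0 (log2(Fold Change) = 2.14 ± 0.13 (SE), padj = 2.6e-13). BCL2 was lowered (log2(Fold Change) = -2.89 ± 0.19 (SE), padj = 9.7e-13, singled out after its values were seen) and BCL2L11, the BH3-only protein BIM, was above DMSO but under the threshold (log2(Fold Change) = 0.46 ± 0.07 (SE), padj = 6.7e-06). No treated well of these 5 genes lay inside the DMSO range. Of 28 p53 target genes, some of which are also early stress genes, 12 were raised and 3 lowered (median 0.7). In the GC fits 9 and 10 were raised, with 1 lowered in each, and 6 were raised under mitochondrial scaling. CDKN1A, the p21 inhibitor of cyclin-dependent kinases, stood at 407, 378 and 348 CPM against 127, 159 and 193 (log2(Fold Change) = 1.28 ± 0.09 (SE), padj = 8.2e-12), with 0.97 under mitochondrial scaling. GDF15 was raised at a low level (log2(Fold Change) = 1.48 ± 0.23 (SE), padj = 4.5e-06), whereas MDM2 (log2(Fold Change) = 0.62 ± 0.15 (SE), padj = 7.6e-04) and ZMAT3 (log2(Fold Change) = -0.4 ± 0.12 (SE), padj = 0.0042) were not called.

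Of 27 G1 regulators 3 were raised and 9 lowered (median -0.54), and the numbers were the same in both GC fits. CCND1, cyclin D1, fell to 86.5, 84.6 and 87.9 CPM from 179.8, 206 and 254 (log2(Fold Change) = -1.28 ± 0.10 (SE), padj = 3.9e-11). CDKN1B, the p27 inhibitor, was below DMSO but under the threshold (log2(Fold Change) = -0.8 ± 0.12 (SE), padj = 1.1e-06), and E2F1 (log2(Fold Change) = -0.16 ± 0.13 (SE), padj = 0.26) and CCNE2, cyclin E2 (log2(Fold Change) = -0.54 ± 0.27 (SE), padj = 0.073), were not called. Of 45 replication genes 6 were raised and 5 lowered (median 0.06), and 3 and 7 in each GC fit. MCM2 (log2(Fold Change) = -0.51 ± 0.09 (SE), padj = 2.0e-05), PCNA (log2(Fold Change) = -0.96 ± 0.19 (SE), padj = 7.1e-05), CDC6 (log2(Fold Change) = 0.18 ± 0.13 (SE), padj = 0.21) and RRM2 (log2(Fold Change) = -0.36 ± 0.13 (SE), padj = 0.014) were not called. Of 46 mitotic genes 11 were raised, 23.9% against 23.7% of all genes, and 4 were lowered (median 0.28). The numbers were 2 and 5 with the GC covariate and 4 and 5 against the low-slope wells. The median changed sign with the covariate and with mitochondrial scaling. These genes had a median GC content of 42.1%, between the 41.1% and 46.1% that bound the second lowest of 5 equal groups of tested protein-coding genes. FOXM1, the mitotic transcription factor, was singled out after its values were seen and fell to 121, 118 and 123 CPM from 465, 603 and 661 (log2(Fold Change) = -2.25 ± 0.13 (SE), padj = 1.3e-13), while CCNB1 (log2(Fold Change) = 0.23 ± 0.12 (SE), padj = 0.09), PLK1 (log2(Fold Change) = -0.45 ± 0.12 (SE), padj = 0.0022), CDC20 (log2(Fold Change) = -0.36 ± 0.12 (SE), padj = 0.0083) and CCNF (log2(Fold Change) = -0.73 ± 0.10 (SE), padj = 4.9e-07) were not called. The tubulins TUBB (log2(Fold Change) = -2.34 ± 0.11 (SE), padj = 5.2e-15) and TUBA1B (log2(Fold Change) = -1.46 ± 0.14 (SE), padj = 1.1e-09) were among 4 of 15 tubulin genes lowered, and TUBB4B lay above DMSO without passing the fold threshold (log2(Fold Change) = 0.45 ± 0.09 (SE), padj = 1.3e-04).

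Of 46 collagen and matrix genes 26 were lowered and 6 raised (median -1.26), with 25 and 26 lowered in the GC fits and 31 with mitochondrial scaling. COL4A1 (ENSG00000187498, chr13:110148963-110307157, minus strand), a basement membrane collagen, fell to 9.8, 9.68 and 10.2 CPM from 311, 376 and 520.0 (log2(Fold Change) = -5.29 ± 0.21 (SE), padj = 1.2e-16). COL1A1, the main fibrillar collagen of bone, fell to 158, 155 and 166 CPM from 1456, 1869.7 and 2522 (log2(Fold Change) = -3.56 ± 0.17 (SE), padj = 3.9e-15). SPARC, a collagen-binding matrix protein, fell to 230.4, 231 and 229.6 CPM from 1242, 1404 and 1692 (log2(Fold Change) = -2.62 ± 0.10 (SE), padj = 4.1e-17). TNC, tenascin C, was singled out after its values were seen (log2(Fold Change) = -3.57 ± 0.13 (SE), padj = 4.3e-17). FN1, fibronectin, was at 1267, 1286 and 1298 CPM against 1287, 1482 and 1731 and was not called (log2(Fold Change) = -0.2 ± 0.07 (SE), padj = 0.019). Of the 6 raised collagens, COL28A1 (5.01) and COL10A1 (4.48, log2(Fold Change)) changed most and were named for that. Of 16 TGF-β and BMP response genes 8 were lowered and 3 raised (median -0.98). SMAD7, the inhibitory SMAD, was lowered (log2(Fold Change) = -1.31 ± 0.15 (SE), padj = 3.0e-08), with -0.89 under the GC covariate, and SKIL, a corepressor of SMADs, stood at 219.8, 199.9 and 269 CPM against 31.3, 50.0 and 87.9 (log2(Fold Change) = 2.16 ± 0.20 (SE), padj = 6.9e-10). ID1, a BMP target, lay below DMSO under the fold threshold (log2(Fold Change) = -0.78 ± 0.16 (SE), padj = 1.3e-04).

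HOX genes, the positional homeobox factors, had a median of -1.54, with 23 of 33 lowered and 1 raised; 18 and 21 were lowered in the GC fits, in both of which the median was -1.19. HOXA10 fell to 4.58, 5.55 and 4.09 CPM from 22.3, 26.4 and 30.3 (log2(Fold Change) = -2.47 ± 0.12 (SE), padj = 4.6e-15), without overlap. HOXC10 was below DMSO but under the fold threshold (log2(Fold Change) = -0.61 ± 0.11 (SE), padj = 2.8e-05). HOXA6 (log2(Fold Change) = -5.27 ± 0.48 (SE), padj = 5.0e-10) and HOXA13, both chosen after their values were seen, were lowered most. HOXA13 fell to 0.324, 0.402 and 0.625 CPM from 5.22, 7.74 and 11.1 (log2(Fold Change) = -4.07 ± 0.26 (SE), padj = 8.3e-13). The largest falls among all protein-coding genes of sufficient level were of mixed function. SOX12, a SoxC factor, fell to 2.02, 1.74 and 2.00 CPM from 73.2, 88.8 and 119.9 (log2(Fold Change) = -5.58 ± 0.22 (SE), padj = 8.6e-17). TSKU, a secreted small proteoglycan, fell to 1.64, 1.74 and 1.91 CPM from 61.7, 72.3 and 87.3 (log2(Fold Change) = -5.34 ± 0.15 (SE), padj = 5.3e-19). NEURL1B, a Notch ligand ubiquitin ligase, fell to 1.21, 1.93 and 1.39 CPM from 46.5, 66.5 and 82.4 (log2(Fold Change) = -5.49 ± 0.19 (SE), padj = 1.5e-17). LRRC3 (log2(Fold Change) = -5.27 ± 0.21 (SE), padj = 9.3e-17), B4GAT1, a glycosyltransferase of α-dystroglycan (log2(Fold Change) = -5.17 ± 0.22 (SE), padj = 3.9e-16), and DPYSL2, a microtubule-binding protein of growth cones (log2(Fold Change) = -5.15 ± 0.11 (SE), padj = 8.1e-21), completed the 8 largest falls with JDP2 and COL4A1.

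The other 5 of the 8 largest rises were in genes that DMSO wells barely expressed. The floor of 10 CPM was set on the mean of both group means, and all 8 genes met it through their treated wells. The rule thus favours genes near 0 in DMSO. IRGM, an immunity-related GTPase, stood at 37.9, 43.2 and 34.7 CPM against 0.0512, 0.13 and 3.87 (log2(Fold Change) = 8.16 ± 0.20 (SE), padj = 5.1e-20). ACTN2, the muscle α-actinin, stood at 151, 148 and 146 CPM against 0.307, 0.642 and 7.74 (log2(Fold Change) = 7.89 ± 0.16 (SE), padj = 2.5e-21). SH2D4B, an SH2 domain protein, stood at 21.9, 19.5 and 22.6 CPM against 0, 0.085 and 0.197 (log2(Fold Change) = 7.86 ± 0.24 (SE), padj = 1.0e-18). HSPA2, a testis-rich HSP70, stood at 25.2, 27.3 and 25 CPM against 0.0512, 0.147 and 7.74 (log2(Fold Change) = 7.36 ± 0.25 (SE), padj = 9.9e-18), and DNAH3, an axonemal dynein heavy chain, at 61.2, 58.6 and 58.7 CPM against 0.102, 0.401 and 3.87 (log2(Fold Change) = 7.18 ± 0.20 (SE), padj = 3.4e-19). Replicate 10 was the highest DMSO well for IRGM, ACTN2, HSPA2 and DNAH3 (3.87 to 7.74 CPM) and read 0 for SH2D4B. With 0.460 mil counts in that well, these values rest on a few reads.

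In the clock BMAL1 and CLOCK bind E-boxes of the PER and CRY genes, whose proteins repress them, and REV-ERB receptors close a further loop. Of 18 genes 13 were raised and 1 lowered (median 1.7), with the same numbers in both GC fits. NR1D1, the REV-ERBα repressor, stood at 701, 697 and 683 CPM against 13.6, 16.7 and 92.9 (log2(Fold Change) = 5.31 ± 0.20 (SE), padj = 4.5e-17). PER1 stood at 353, 330.2 and 341 CPM against 21.4, 27 and 50.3 (log2(Fold Change) = 3.63 ± 0.10 (SE), padj = 3.4e-19). PER2 stood at 120.0, 122 and 127 CPM against 12.9, 15.5 and 23.2 (log2(Fold Change) = 2.96 ± 0.10 (SE), padj = 7.1e-18) and CRY1 at 111, 109 and 112 CPM against 27.1, 34.9 and 44.7 (log2(Fold Change) = 1.61 ± 0.11 (SE), padj = 2.3e-12). All treated wells exceeded all DMSO wells for 14 of the 18 genes, against 27.8% of all genes. CIART, a repressor of the clock, was raised from 0.00918 CPM in the DMSO median to a treated mean of 0.496 (log2(Fold Change) = 4.19 ± 0.46 (SE), padj = 1.3e-08). Its DMSO maximum was 0.0591 CPM, so it passed the filter on low counts only through its treated wells. The lowered member was NPAS2, a paralog of CLOCK (log2(Fold Change) = -1.72 ± 0.14 (SE), padj = 1.0e-10), and both were named after their values were seen. The E-box CACGTG was in the 250 bases before the start of 6 of the 18 genes, 33.3%, against 10.9% of tested and 9.8% of raised protein-coding genes and 7.73% of all promoters. This E-box was also in 5 of 23 immediate early factors with a promoter sequence, 21.7%. The PER1 stretch below lies at chr17:8152532-8152617, minus strand (GRCh38.p14), with its E-box in capitals 173 bases before the RefSeq start, which lies inside the longer gene model of GENCODE (chr17:8140472-8156506).
PER1: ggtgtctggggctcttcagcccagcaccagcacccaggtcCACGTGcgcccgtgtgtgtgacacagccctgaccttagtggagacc

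Zinc finger genes, many of which encode KRAB repressors of transposable elements, formed the largest list. Of 440 tested 238 were raised and 34 lowered (median 1.1), with 187 and 40 under the GC covariate and 205 and 36 against the low-slope wells. On chromosome 19, where many lie in clusters, 146 of 213 were raised and 13 lowered (median 1.5), and elsewhere 92 of 227 and 21 (median 0.74). The split by chromosome was made only in the fit without a GC term. ZNF267 stood at 73.8, 70.9 and 104 CPM against 6.98, 9.7 and 14.9 (log2(Fold Change) = 3.09 ± 0.15 (SE), padj = 2.7e-15). ZNF460 was raised (log2(Fold Change) = 1.07 ± 0.11 (SE), padj = 3.1e-09), with 0.89 and 0.91 in the GC fits, 0.81 under mitochondrial scaling and 0.95 against DMSO replicates 1 to 3 only. The list had a median GC content of 43.2%, and close paralogs in it may share reads.

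Gene biotypes differed as well. Among protein-coding genes 3743 of 14945 (25%) were raised and 2913 (19.5%) lowered. Among lncRNA genes 378 of 2489 (15.2%) were raised and 1124 (45.2%) lowered. The numbers were 377 and 1039 under the GC covariate and 380 and 868 against the low-slope wells. Transcribed unprocessed pseudogenes, which often share reads with their parents, were raised in 167 of 347 (48.1%) and lowered in 38. The summed lncRNA share of counts was 0.852% ± 0.0478 (SD, n = 3) against 0.904% ± 0.0408 (n = 18; exact permutation test, p = 0.063, adjusted p = 0.072). As a share of TPM, which divides by length, it was 1.97% ± 0.0676 against 1.61% ± 0.106 (adjusted p = 0.0048, exact permutation test). Protein-coding genes took 97.9% ± 0.0683 of counts against 98.1% ± 0.0903 (adjusted p = 0.02, same test), and the 100 genes with most counts took 17% ± 0.373 against 19.4% ± 1.06 (adjusted p = 0.0048). TM4SF18-AS1 (log2(Fold Change) = 8.68 ± 0.32 (SE), padj = 3.1e-17), LINC01419 (log2(Fold Change) = 7.21 ± 0.24 (SE), padj = 7.3e-18), CCDC13-AS2 (log2(Fold Change) = 6.62 ± 0.31 (SE), padj = 2.2e-15) and ENSG00000248596 (log2(Fold Change) = 6.47 ± 0.27 (SE), padj = 2.6e-16) were the lncRNAs with the largest rises among those with a mean of both group means of at least 5 CPM. Their DMSO medians were 0.0254, 0.15, 0.103 and 0.148 CPM, so they met this floor through their treated wells. Replicate 10 was the highest DMSO well for TM4SF18-AS1, LINC01419 and CCDC13-AS2, at 1.94, 3.87 and 1.94 CPM. FOXD2-AS1 fell to 0.526, 0.751 and 0.697 CPM from 16.5, 20.1 and 27.1 (log2(Fold Change) = -4.92 ± 0.16 (SE), padj = 3.8e-18), and ENSG00000260604 (log2(Fold Change) = -5.48 ± 0.20 (SE), padj = 4.0e-17), GAS6-AS1 (log2(Fold Change) = -4.79 ± 0.31 (SE), padj = 9.3e-13) and MIR1915HG (log2(Fold Change) = -4.39 ± 0.21 (SE), padj = 3.6e-15) were the other large falls. The kit keeps strand, but the strand setting of the counting is not given in the sources used here, so reads of antisense genes and their partners may be mixed. The number of genes with FPKM of at least 1 was 13852 ± 77.1 (SD, n = 3) in treated and 13903 ± 284 (n = 18) in DMSO wells (exact permutation test, p = 0.44).

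GC content moved with the calls. Raised protein-coding genes had a median transcript GC content of 45.3% and lowered ones 54.4%, against 49.2% for all tested. In the lowest of 5 equal groups by GC content 38% were raised and 7.36% lowered, and in that of highest GC content 18% were raised and 29.8% lowered. Once each library's slope was a covariate the figures were 19% and 15.6%, and 24.3% and 20.5%. The median log2(Fold Change) of the lowest group was 0.65 as tested, 0.03 with the covariate and 0.19 against the low-slope wells. The slope is computed over all genes, those changed by the compound included, and its cause was not tested.

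**Figure D4:**
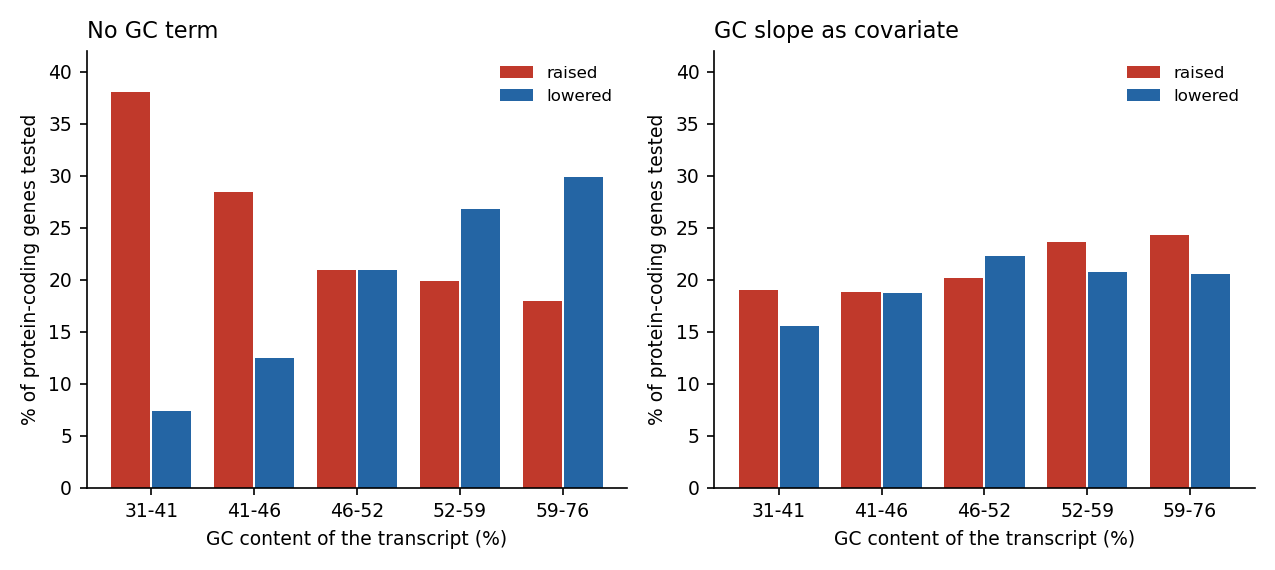
Percent of tested protein-coding genes raised (red) and lowered (blue) by homoharringtonine 10000 nM in 5 equal groups of transcript GC content (%), without a GC term (left) and with each library's GC slope in the fit (right). On the left the raised share falls from 38% to 18% and the lowered share climbs from 7.36% to 29.8%, whereas on the right no group lies outside 15.6% to 24.3%.

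Of 32 sterol and fatty acid genes 4 were raised and 5 lowered (median -0.29), with 7 lowered in each GC fit. HMGCS1, an early enzyme of the mevalonate pathway, stood at 530.2, 518 and 578 CPM against 51, 109 and 209 (log2(Fold Change) = 2.25 ± 0.28 (SE), padj = 1.5e-07), while FASN (log2(Fold Change) = 0.13 ± 0.11 (SE), padj = 0.28) and INSIG1 (log2(Fold Change) = 0.15 ± 0.12 (SE), padj = 0.26) were not called. Of 20 NRF2 antioxidant genes 2 were raised and 6 lowered (median -0.48), including TXNRD1, thioredoxin reductase (log2(Fold Change) = -1.26 ± 0.14 (SE), padj = 1.9e-08), whereas HMOX1 (log2(Fold Change) = -0.11 ± 0.12 (SE), padj = 0.38) and GCLM (log2(Fold Change) = -0.76 ± 0.16 (SE), padj = 2.1e-04) were not called. NQO1 was lowered at the threshold (log2(Fold Change) = -1.02 ± 0.14 (SE), padj = 4.6e-07), with -0.98 in DESeq2 and a value just short of the threshold without treated replicate 3. Of 21 hypoxia-inducible factor targets 7 were raised and 3 lowered (median -0.2). KDM3A, a histone demethylase singled out after its values were seen, stood at 313, 309 and 349 CPM against 18.7, 29.8 and 45.6 (log2(Fold Change) = 3.41 ± 0.17 (SE), padj = 8.6e-15). NDRG1 (log2(Fold Change) = 1.66 ± 0.10 (SE), padj = 1.3e-13) and ADM, adrenomedullin (log2(Fold Change) = 1.91 ± 0.16 (SE), padj = 9.1e-11), were raised, and VEGFA (log2(Fold Change) = -0.2 ± 0.13 (SE), padj = 0.16) and PGK1 (log2(Fold Change) = -0.63 ± 0.12 (SE), padj = 4.8e-05) were not called.

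Of 12 polyamine genes 5 were raised and 1 lowered (median 0.51). ODC1, ornithine decarboxylase, stood at 1940.4, 1952 and 1869 CPM against 490.1, 730.3 and 1008 (log2(Fold Change) = 1.41 ± 0.17 (SE), padj = 9.5e-08), with 0.84 under the GC covariate, while AMD1 (log2(Fold Change) = 0.11 ± 0.27 (SE), padj = 0.71) and the antizyme OAZ1 (log2(Fold Change) = -0.4 ± 0.14 (SE), padj = 0.015) were not called. SAT1, the acetyltransferase that degrades polyamines, was singled out after its values were seen, at 59.7, 65.8 and 54.4 CPM against 1.84, 2.29 and 5.81 (log2(Fold Change) = 4.68 ± 0.13 (SE), padj = 1.6e-19). Of 29 lysosome and autophagy genes 6 were raised, 20.7% against 23.7% of all genes, and 5 were lowered (median 0.26), with 7 and 2 under the GC covariate. SQSTM1, the p62 autophagy receptor, stood at 1491, 1477 and 1308 CPM against 310.3, 416 and 519 (log2(Fold Change) = 1.82 ± 0.11 (SE), padj = 2.3e-13) and CTSD, cathepsin D, at 70.1, 68.5 and 70.8 CPM against 139, 177 and 219 (log2(Fold Change) = -1.32 ± 0.13 (SE), padj = 3.8e-09; -0.92 under the covariate). LAMP1 lay below DMSO under the fold threshold (log2(Fold Change) = -0.32 ± 0.06 (SE), padj = 4.6e-05). Of 6 metallothionein list genes tested 2 were raised (median 0.78), and MT1X (log2(Fold Change) = 0.71 ± 0.13 (SE), padj = 3.4e-05) and MT2A (log2(Fold Change) = -0.94 ± 0.21 (SE), padj = 2.9e-04) were not called. Of 22 actin and serum response factor targets 3 were raised and 4 lowered (median -0.24), but 1 lowered in each GC fit, with VCL, vinculin, at 545, 574 and 557 CPM against 186, 206 and 234 (log2(Fold Change) = 1.43 ± 0.06 (SE), padj = 6.0e-16) and ACTB below DMSO but under the fold threshold (log2(Fold Change) = -0.79 ± 0.13 (SE), padj = 7.2e-06). ACTG1 (log2(Fold Change) = 0.08 ± 0.08 (SE), padj = 0.36) and TAGLN (log2(Fold Change) = -0.21 ± 0.14 (SE), padj = 0.18) overlapped DMSO. Of 15 YAP and TEAD targets 4 were raised and 3 lowered (median 0.37), with 6 raised under the GC covariate. CCN1 (log2(Fold Change) = -0.67 ± 0.11 (SE), padj = 6.1e-06), CCN2 (log2(Fold Change) = 0.35 ± 0.18 (SE), padj = 0.085) and AMOTL2 (log2(Fold Change) = 0.37 ± 0.09 (SE), padj = 0.0011) were not called.

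Of 18145 genes tested between the 3 wells at each dose, 51 were raised (0.281%) and 104 lowered (0.573%) at the higher dose. The treated wells are the same as in the comparison with DMSO, so the values of both are given side by side. RRAD, a small GTPase that restrains calcium channels, held 9.84, 12.4 and 9.68 CPM at 10000 nM, 112, 82.9 and 73.4 CPM at 1000 nM and 0.197, 0.355 and 1.94 in DMSO (10000 against 1000 nM, log2(Fold Change) = -3.02 ± 0.19 (SE), padj = 0.0083). It was raised against DMSO by 4.83 on the log2 scale. NAB2, a corepressor of EGR factors, held 54.3, 60.6 and 52.1 CPM at 10000 nM, 299.8, 214 and 190.1 CPM at 1000 nM and 58.3, 76.4 and 97.9 in DMSO (-2.02 ± 0.17 (SE), padj = 0.0093), and it was not called against DMSO at the higher dose. EBF3 (-2.02 ± 0.15 (SE), padj = 0.0083) and TCERG1L (-1.99 ± 0.17 (SE), padj = 0.0093) lay inside the DMSO range at 10000 nM, with means of 108 ± 11 and 49.4 ± 6.19 CPM (SD, n = 3) at 100 nM.

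MYC differed between the doses as well (-1.69 ± 0.16 (SE), padj = 0.013). The largest rises of sufficient level between the doses were in CCNL1, AGAP4, AGAP6 and CHKB. CCNL1, a cyclin gene, held 299.8, 297 and 309 CPM at 10000 nM, 108, 133 and 134 CPM at 1000 nM, 36.6 ± 3.01 CPM (SD, n = 3) at 100 nM and 11.9, 15 and 29 CPM in DMSO (1.31 ± 0.13 (SE), padj = 0.013). AGAP4 (1.22 ± 0.11 (SE), padj = 0.012) and AGAP6 (1.12 ± 0.12 (SE), padj = 0.013) are near-identical paralogs whose reads may be divided between them, and CHKB, a choline kinase, was raised too (1.09 ± 0.14 (SE), padj = 0.023). EGR1 (-0.26 ± 0.09 (SE), padj = 0.21), FOS (-0.01 ± 0.12 (SE), padj = 0.97), NFKBIA (-0.13 ± 0.12 (SE), padj = 0.6), PER1 (-0.53 ± 0.14 (SE), padj = 0.14) and MCL1 (-0.08 ± 0.11 (SE), padj = 0.73) did not pass the test between these doses. The calls between doses rest on 3 wells a side: without any 1 well at 10000 nM, or without replicate 2 at 1000 nM, edgeR called 0 genes in either direction, with 1780 to 2235 genes at an unadjusted p under 0.05, while DESeq2 on all 6 wells called 104 raised and 159 lowered.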

How the data were processed

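RNA of 72 wells of U2OS cells was sequenced with a poly(A)-selecting TruSeq Stranded mRNA kit after extraction with the RNeasy 96 kit, and 21 wells entered the comparison with DMSO, with 6 further wells of lower doses. The authors deposited 1 RSEM table per well with expected counts per gene (not normalised), TPM and FPKM; the submitters' processing notes name RSEM, HTSeq, DESeq2 and the build GRCh38, and versions and the strand setting of counting are not given in the sources used here. Groups were taken from the sample labels. The 92 spike-in rows were left out of library sizes and tests.

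The deposited expected counts were rounded, filtered with filterByExpr (10 counts in the smallest group, 15 in all), scaled by TMM and tested with edgeR 4.0.16 (quasi-likelihood, R 4.3.3), 3 wells against 18 and 3 against 3, with Benjamini-Hochberg adjustment over all genes. SE is the absolute log2(Fold Change) over the square root of F. Levels are CPM with TMM scaling over the 27 wells. The deposited TPM values served for marker levels, and the deposited FPKM values for the number of genes at 1 or more. Shares of counts of 8 classes were compared by two-sided exact permutation tests (scipy 1.17.1), adjusted over the 8; for the classes that are gene lists no p is given. Alternatives used DESeq2 1.42.0, other scalings and filters, left-out wells, the GC slope as covariate and the replicate number as block. On simulated counts for the comparison with DMSO (18176 genes tested), edgeR called 200 of 200 genes changed by 2 on the log2 scale and 4 others, and between doses (18045 genes) 196 of 200 and 12 others. With the replicate block it called 190 and 9 on DMSO replicates 1 to 3 (17242 genes) and 196 and 13 between doses. The simulation changed only 200 well-expressed genes, equally up and down, and held no GC slope. It therefore cannot give the error rate of the comparison with DMSO, where 47.2% of genes were called.

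Named genes were the reference members of 40 lists, and, among called genes whose treated wells all lay outside the DMSO range, the 8 most raised and 8 most lowered coding for protein (mean of both group means at least 10 CPM) and the 4 and 4 lncRNA genes (at least 5 CPM), with 4 and 4 coding genes between doses. A few reference members are not reported here. Further genes are marked in the text as chosen after their values were seen. The members and lists were chosen with earlier results of these data known. Promoters are from the RefSeq table for GRCh38.p14 and 3′ UTRs from GENCODE 44 on GRCh38, whose release need not be that of the authors. A GC value was found for 98.2% of the tested genes. Depth was 0.460 mil to 56.9 mil counts per well, which limits DMSO replicate 10 most.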

Additional observations from a re-analysis of the deposited data

How the results depend on the processing

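Against DMSO the numbers of raised and lowered genes stayed within 1.5 times of the reported ones under each alternative except filtering, where the raised genes numbered 7573 with no filter on low counts and 2960 with at least 10 counts in every well. Raised and lowered genes numbered 5310 and 4763 in DESeq2, 4690 and 4369 with size factors, 4410 and 4725 with library sizes, 3714 and 5711 with mitochondrial scaling, 3947 and 4454 with the GC slope as covariate, and 4306 and 4061 with the low-slope DMSO wells. The last of these, and the fit without a block on DMSO replicates 1 to 3, were chosen after seeing the data. Between 10000 and 1000 nM DESeq2 gave 104 raised and 159 lowered genes, and leaving out 1 well gave 0 to 98 raised and 0 to 144 lowered. Of 242 values of named genes none changed direction under any alternative, and 26 of these values lost their call in at least 1. Of the 80 counts of list members, 17 moved by more than 1.5 times with the GC covariate, 18 with mitochondrial scaling, 9 with the low-slope wells, 8 with the stricter filter, 3 with no filter, 2 in DESeq2, 1 with size factors, 1 without treated replicate 3 and 14 with DMSO replicates 1 to 3 only. The share of protein-coding genes, lower in treated wells by counts, was higher by 0.0084 percentage points as share of TPM, and -0.194 to -0.129 with 1 treated well left out, without a call when replicate 1 or 2 was absent. The lncRNA share reversed to 0.358 points higher as TPM (exact permutation test, adjusted p = 0.0048). The number of detected genes, 51.1 fewer in treated wells at FPKM of at least 1, became 2853 more at FPKM above 0 and 1115 more at 0.1 or above. The cause of these changes was not tested.

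The rule for pairing, every same-numbered pair correlated over 0.1, was not met. Against DMSO, deviations of same-numbered wells correlated between -0.11 and 0.07 and those of differently numbered wells between -0.14 and 0.21. Against 1000 nM they correlated between 0.015 and 0.47 (mean 0.22), and those of differently numbered wells between -0.38 and 0.25 (mean -0.11), so a shared batch by number is not settled there. NOP56, H1-2 and ZNF460 lost their call on DMSO replicates 1 to 3, with the block (0.90, 0.91 and 0.96, log2 scale) and without it (0.89, 0.90 and 0.95). With the replicate block on DMSO replicates 1 to 3, 4707 genes were raised and 4311 lowered, and on these wells without the block 4693 and 4368. Between doses the replicate block gave 35 and 87.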
